A study of Mus musculus with 2 samples.

Results

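Adhesion receptors hold cells to each other and to the extracellular matrix. The group described here comprised 43 genes: integrin chains, cadherins, immunoglobulin-type and selectin-type adhesion molecules, CD44, CD47 and syndecans. They form a fixed list that does not hold every adhesion receptor, out of 18093 genes, and all probe sets that the platform's annotation assigns to a listed gene alone were taken, 107 of 45101. RNA came from peritoneal macrophages of C57BL/6J mice, collected on day 3 after thioglycolate, which irritates the peritoneum and recruits these cells, was injected. A single array was hybridised with RNA of cells given LPS+CPN, and a single array with RNA of cells given LPS+CPN+GGOH. Both groups therefore share the mouse strain, the thioglycolate, LPS (bacterial lipopolysaccharide) and CPN, a compound that the labels give only by this abbreviation. GGOH is geranylgeraniol, an isoprenoid alcohol of the mevalonate pathway, and the study asked which genes it raised or lowered in LPS+CPN-treated cells. The sources used here do not give doses, treatment times or whether animals were pooled. With 1 array per condition there is no replicate and no test, and every difference below describes these 2 arrays.

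Integrins are receptors made of an alpha and a beta chain, and the chains present decide which ligand is bound. Leukocytes carry the beta chain Itgb2 with its alpha partners, which bind ICAM molecules and complement fragments, whereas fibroblasts, mesothelium and epithelium rely more on Itgb1 partners that bind laminin, collagen and fibronectin, and on cadherins that join like cells through calcium-dependent contacts. Thioglycolate-elicited macrophages are known for Itgb2 integrins, which serve their adhesion to plastic and their uptake of opsonised particles. For the comparison asked of this group, the genes were divided by textbook knowledge into a leukocyte class of 8 genes, a stromal class of 19 genes and a shared class of 16 genes expressed in both kinds of cell. This was done with earlier results of these data known, so the classes are not independent of the ratios below.

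Promoter sequences are shown for 5 members that stand for the main patterns: the neighbouring leukocyte integrin genes Itgam and Itgax, which differed in opposite directions, the LPS-inducible gene Icam1, and F11r and Itga3, which were both higher with GGOH. They are RefSeq sequences of GRCm38.p6, written 5′ to 3′ on the gene's strand, and end just before the outermost annotated start of the gene. Capitals mark matches, on either strand, to GAGGAA (the core recognised by PU.1, a myeloid transcription factor), TGANTCA (AP-1), GGNNNTTCC (NF-kB type), GGAATG (TEAD core) and GGGCGG (GC box).
Itgam (chr7:128062390-128062639, plus strand): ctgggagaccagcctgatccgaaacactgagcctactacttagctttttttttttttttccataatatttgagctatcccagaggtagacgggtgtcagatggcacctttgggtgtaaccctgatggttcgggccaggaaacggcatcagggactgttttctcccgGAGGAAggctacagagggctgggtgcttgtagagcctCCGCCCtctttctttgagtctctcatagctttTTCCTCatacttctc
Itgax (chr7:128129300-128129525, plus strand): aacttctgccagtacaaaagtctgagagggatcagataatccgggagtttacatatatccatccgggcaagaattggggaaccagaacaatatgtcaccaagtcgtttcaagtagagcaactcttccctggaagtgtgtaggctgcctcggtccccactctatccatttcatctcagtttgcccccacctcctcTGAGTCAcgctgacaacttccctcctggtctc
Icam1 (chr9:21015690-21015939, plus strand): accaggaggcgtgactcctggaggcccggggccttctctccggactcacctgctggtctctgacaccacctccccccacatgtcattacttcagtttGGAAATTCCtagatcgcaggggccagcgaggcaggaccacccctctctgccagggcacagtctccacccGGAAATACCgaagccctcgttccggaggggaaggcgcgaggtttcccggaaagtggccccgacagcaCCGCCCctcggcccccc
F11r (chr1:171437311-171437560, plus strand): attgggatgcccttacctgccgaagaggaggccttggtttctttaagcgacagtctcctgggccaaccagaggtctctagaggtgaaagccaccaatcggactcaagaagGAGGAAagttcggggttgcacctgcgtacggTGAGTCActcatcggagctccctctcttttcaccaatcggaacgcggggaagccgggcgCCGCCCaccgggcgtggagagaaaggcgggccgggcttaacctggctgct
Itga3 (chr11:95076845-95076964, minus strand): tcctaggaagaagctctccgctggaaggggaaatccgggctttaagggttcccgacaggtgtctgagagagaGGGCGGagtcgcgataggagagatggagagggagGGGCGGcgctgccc
The Itgam window held 2 GAGGAA matches and 1 GGGCGG match, and the Itgax window held 1 TGANTCA match and no other. In the Icam1 window there were 2 GGNNNTTCC matches and 1 GGGCGG match. For F11r the window held 1 match each of the PU.1 core, the AP-1 motif and the GC box, and for Itga3 it held 2 GC boxes. GGAATG was in none of the 5 windows. No matches of different motifs overlapped. Over 32851 RefSeq promoter windows of 250 bases, the shares with at least 1 match were 23.3% for GAGGAA, 6.75% for TGANTCA, 15.7% for GGNNNTTCC, 12.6% for GGAATG and 32.7% for GGGCGG. In windows cut to the 226 bases of Itgax, 6.26% held TGANTCA, and in windows cut to the 120 bases of Itga3, 12.8% held GGGCGG. Promoters were matched for 23 of the 43 members. These matches are descriptions of letters and not of binding. Itgam and Itgax lie beside each other on the chromosome, with 1 pseudogene between their starts in RefSeq.

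Signals were read against a floor of 59.9, the 50th percentile of all signals, below which a signal was taken as background. A gene was measured if it was above the floor on at least 1 array, and its log2 ratio takes LPS+CPN from LPS+CPN+GGOH. A gene above the floor on only 1 array has only a bound, written as "at least". Of the 43 members 31 were measured, 24 on both arrays, 6 on the LPS+CPN+GGOH array alone and 1 (Jam2) on the LPS+CPN array alone. At 2-fold or more, 8 members were higher with GGOH (Itgam, Itga3, Itga6, Itga7, Cdh2, Cdh3, Cdh11 and F11r), against a background of 5.50% of all measured genes, and 1 was lower (Jam2), against 1.66%. A member measured only through its GGOH signal could not have come out lower, so the count of 8 is a description and not a share of all members. Among members measured on both arrays 4 of 24 were at least 2-fold higher (Itgam, Itga3, Itga6 and F11r), where the background was 3.31%, and none was at least 2-fold lower, where it was 1.52%. With each array divided by its median, a change that moved the all-gene median by -0.16, 6 members were higher and 2 lower. Itgam and Itga7 then fell short of 2-fold and Itgal passed it. As a scale, log2 ratios of different probe sets of the same gene on these 2 arrays had a pooled SD of 0.45. This SD does not hold the variation between animals, cultures or arrays.

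**Figure D1:**
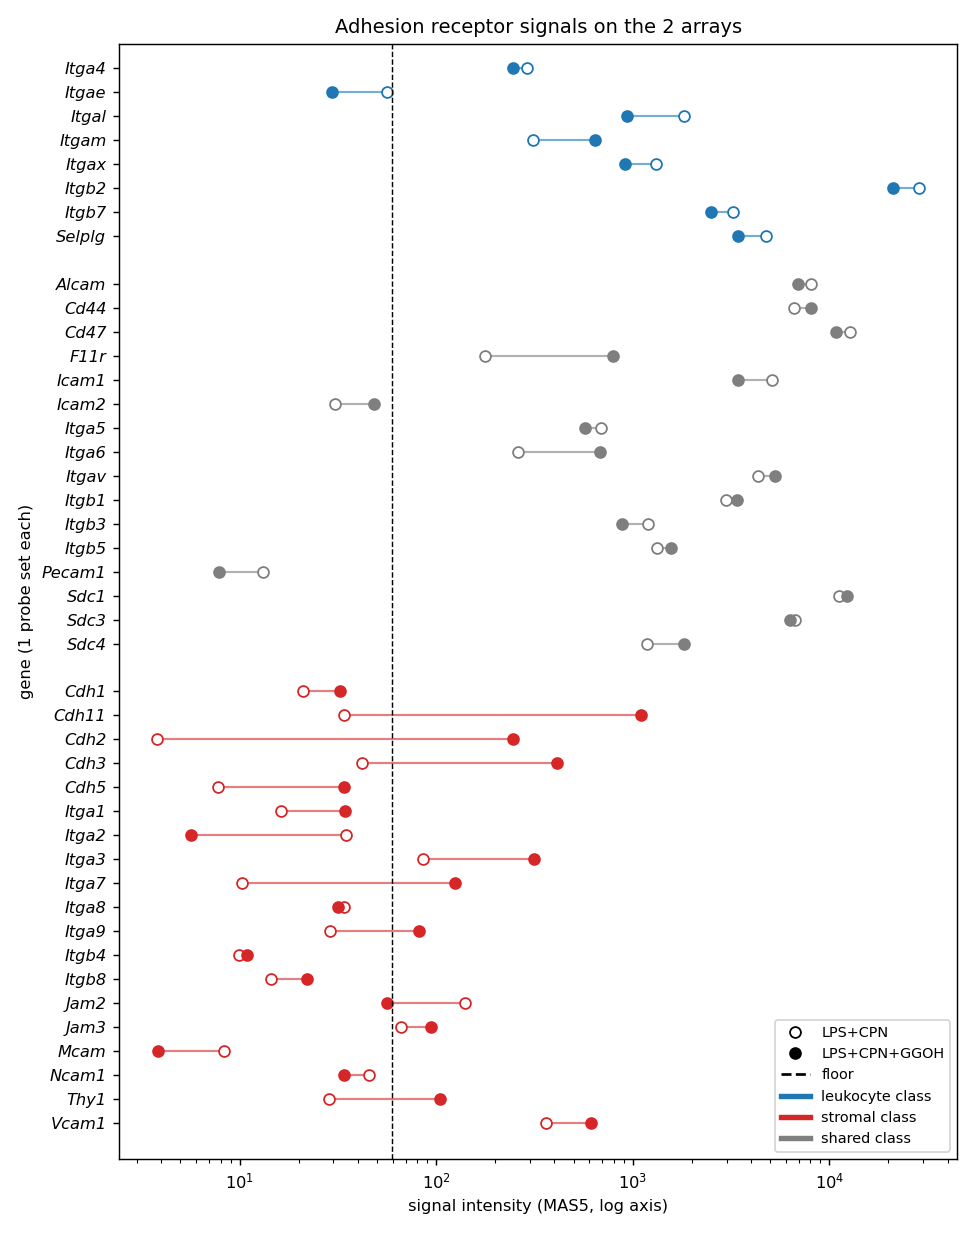
Signal intensity of each of the 43 adhesion genes (log axis) on the LPS+CPN array (open circles) and the LPS+CPN+GGOH array (filled circles), 1 probe set per gene, coloured by class, with the floor of 59.9 as a dashed line. Apart from Itgam, the leukocyte genes lie to the left with GGOH, while Cdh11, Cdh2, Cdh3 and Itga7 cross the floor from left to right.

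The leukocyte class was slightly lower with GGOH, apart from Itgam. Of its 8 genes 7 were measured, all on both arrays, and 6 of the 7 had a log2 ratio below 0, as did 51.4% of all measured genes. The median log2 ratio was -0.44, against -0.01 over all measured genes. Itgb2, the common beta chain of the leukocyte integrins, had a signal of 28714 with LPS+CPN and 21103 with LPS+CPN+GGOH, a log2 ratio of -0.44. Itgal, its alpha partner on lymphocytes and monocytes and a receptor for ICAM molecules, read 1834 and 934, the lowest log2 ratio of the class at -0.97. A second Itgal probe set read 213 and 157 (-0.44), so both lay lower with GGOH. Itgax, the alpha chain known as CD11c on dendritic cells and macrophages, read 1313 and 914 (-0.52). All 3 were therefore lower with GGOH, Itgb2 and Itgax by about the SD between probe sets and Itgal by more, and none of them reached 2-fold.

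Itgam, the alpha chain of complement receptor CR3, was the exception among the leukocyte genes. Its only probe set read 312 with LPS+CPN and 646 with GGOH, a log2 ratio of 1.05. That is just past 2-fold, and it stayed above 2-fold under 6 of 11 other settings. Of these 6, only scaling with macrophage markers at 0 changed its value, to 1.26. The others cannot change a gene with 1 probe set that is above the floor on both arrays. Its lowest value was 0.78, with the floor at the 75th percentile. With median-scaled arrays it was 0.88, after quantile normalization 0.92, after lowess 0.98 and with a pseudocount 0.93. Itgam thus differed in direction from Itgb2, the chain it needs to reach the surface, by about 1.5 on the log2 scale.

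The other leukocyte genes had small ratios. Itgb7, the beta chain of gut-homing lymphocyte integrins, read 3229 and 2512 (-0.36). Selplg, which encodes the ligand of P-selectin on leukocytes, read 4758 and 3435 (-0.47). Both lay below 0 under every setting tried, though several of these could not change their values. Itga4, which pairs with Itgb1 or Itgb7 and binds VCAM, read 290 and 245 in its brightest probe set (-0.24). Its other 2 measured probe sets were above the floor only with GGOH, at bounds of 0.42 and 0.11, so the direction of Itga4 is not settled. Itgae, the E-cadherin-binding chain of intraepithelial lymphocytes, was at the floor on both arrays.

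Of the 19 stromal adhesion genes 9 were at the floor on both arrays. Of the 10 that were measured, 5 were at least 2-fold higher with GGOH, beside 5.50% of all measured genes. Among the 5, Itga7, Cdh2, Cdh3 and Cdh11 were measured only through their GGOH signal and could not have come out lower. Above the floor on both arrays were 3 of the 10 (Itga3, Vcam1 and Jam3). Of these 3 only Itga3 was at least 2-fold higher, beside 3.31% of genes measured on both arrays. In all, 9 of the 10 had a log2 ratio above 0, and 1 was at least 2-fold lower, beside 1.66% of all measured genes. The median log2 ratio was 0.94. It was 0.77 over the 3 genes measured on both arrays. Since 6 of the 10 genes were measured only through their GGOH signal, the class was also described with no floor at all. Then 14 of its 19 genes had a higher signal with GGOH, and 5 a lower one. A higher signal was found in 1 of 8 leukocyte genes, 9 of 16 shared genes and 47.9% of all 18093 genes. The stromal count still holds the 6 genes measured only through GGOH, and the 9 genes it adds were at the floor on both arrays. No direction can be read from those 9, so the count does not remove that limit.

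Of the 5 cadherins 3 were at least 2-fold higher, beside 5.50% of all measured genes. These 3 were measured only through their GGOH signal and could not have come out lower. Cdh11 had the largest log2 ratio of the 43 members. Cdh11, the cadherin of fibroblasts and other mesenchymal cells, read 34.0 with LPS+CPN and 1101 with LPS+CPN+GGOH, at least 18.4-fold higher. A second Cdh11 probe set read 19.2 and 84.9, at least 1.42-fold higher. Both sets crossed the floor in the same direction, but they gave very different bounds. Cdh2, or N-cadherin, found on mesothelium, fibroblasts and neurons, read 3.81 and 247 in a first probe set (at least 4.13-fold) and 0.908 and 579 in the other (at least 9.66-fold). Cdh3, or P-cadherin, read 42.0 and 412, at least 6.88-fold higher, while its other probe set stayed below the floor (3.94 and 26.1). All 3 genes were thus at background on the LPS+CPN array, and a bound is all that can be given. Cdh1 (E-cadherin, of epithelium; 21.1 and 32.5) and Cdh5 (VE-cadherin, of endothelium; 7.73 and 34.1) were at the floor on both arrays.

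Laminin-binding integrin alpha chains were also higher. Itga3, which pairs with Itgb1 and binds laminin, read 85.4 and 313, a log2 ratio of 1.88, or 3.67-fold. It remained past 2-fold under all 10 other settings in which it was measured, although its other 2 probe sets were at the floor. Several of these settings could not change its value, and the lowest was 1.36. Itga7, the laminin receptor chain of muscle, read 10.3 and 125, at least 2.09-fold higher. It fell short of 2-fold after quantile normalization (0.91) and with median-scaled arrays (0.97). Itga6, a laminin-binding chain placed in the shared class, read 261 and 684 in a first probe set and 124 and 300.0 in the other. These gave log2 ratios of 1.39 and 1.27, so both probe sets of Itga6 were at least 2-fold higher, and on both arrays both lay above the floor. The 3 chains of the laminin-binding subfamily were therefore all higher with GGOH at the deposited scaling.

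The remaining stromal integrin chains were near or below background. Itga9, which binds tenascin and VCAM, read 28.9 and 81.5, at least 1.36-fold higher. The collagen-binding chains Itga1 (16.2 and 34.3) and Itga2 (34.8 and 5.63) were at the floor on both arrays. So were Itga8, a receptor chain of mesenchymal cells (34.1 and 31.6), Itgb4, the epithelial partner of Itga6 (9.90 and 10.9), and Itgb8, a partner of Itgav (14.5 and 21.9). For these 5 genes no direction can be read.

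Vcam1, the endothelial and stromal ligand of Itga4 integrins, gave very different values from its 3 probe sets. The set with the highest mean log2 signal read 361 and 616, a log2 ratio of 0.77. Another read 63.7 and 1598, a log2 ratio of 4.65, and the last read 26.5 and 289, at least 4.82-fold higher. All were higher with GGOH, but the size ranged from under 2-fold to 25.1-fold. Taken as the median over its probe sets, the log2 ratio of Vcam1 was 2.27, past 2-fold. This was the widest within-gene range among the 43 members, and which transcripts each set reads was not tested.

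Among the other stromal members, Jam2, a junctional adhesion molecule of endothelium, was the only member at least 2-fold lower. It read 141 with LPS+CPN and 56.0 with GGOH, at least 2.35-fold lower, and its other 4 probe sets were at the floor on both arrays. With a pseudocount in place of the floor its log2 ratio was -0.79. The related Jam3 read 65.9 and 94.1 (0.51), so Jam2 and Jam3 had opposite signs at low signals. Thy1, a glycoprotein of fibroblasts and T cells, read 28.5 and 105, at least 1.76-fold higher. Ncam1, the neural cell adhesion molecule, was at the floor in its brightest probe set (45.4 and 34.2), yet another of its 7 sets read 1.67 and 115, at least 1.92-fold higher. Mcam, a marker of pericytes and endothelium, was at the floor (8.33 and 3.86).

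**Figure D2:**
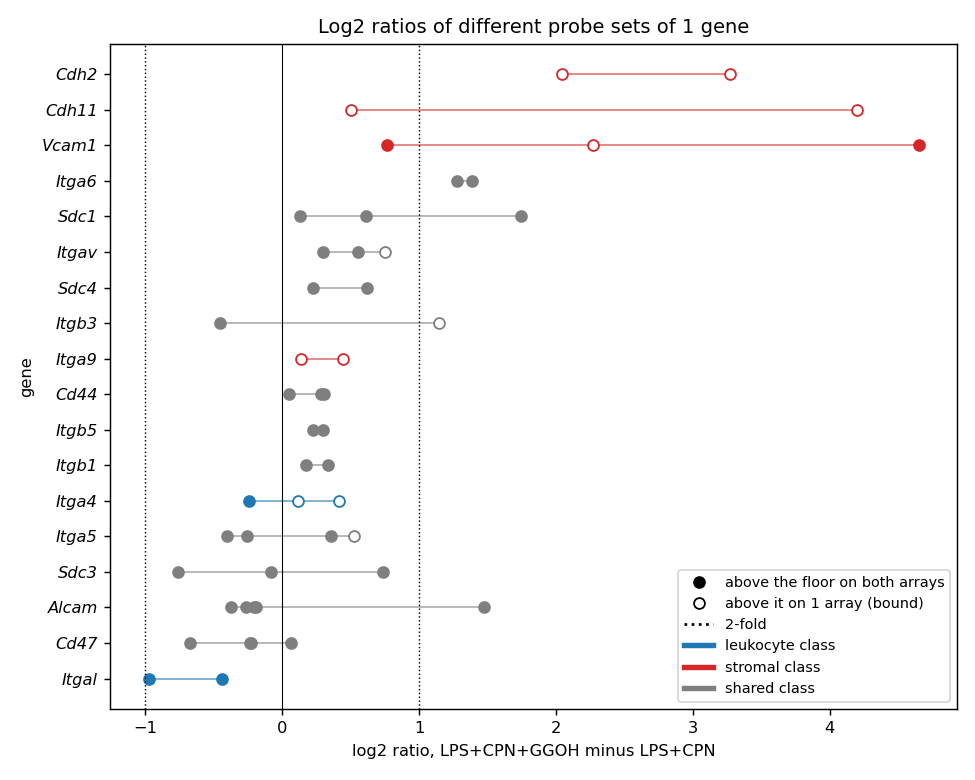
Log2 ratios (LPS+CPN+GGOH minus LPS+CPN) of each measured probe set, for the 18 members with more than 1. Filled circles are above the floor on both arrays, open circles on 1 array and so bounds, dotted lines mark 2-fold. The probe sets of Vcam1 spread from 0.77 to 4.65 and those of Cdh11 from 0.50 to 4.20, while those of Cd44, Itgb1 and Itgb5 lie close together.

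Shared adhesion genes differed little, with 2 exceptions. Of 16 genes 14 were measured, all on both arrays, and 12 of the 14 lay within 2-fold. Their median log2 ratio was 0.15, and -0.02 with median-scaled arrays, so the class as a whole has no settled direction. The exceptions were Itga6, given above, and F11r, which encodes junctional adhesion molecule A of epithelium, endothelium and leukocytes. F11r read 178 with LPS+CPN and 797 with GGOH, a log2 ratio of 2.16 or 4.48-fold. Under all 11 other settings it was past 2-fold, with a lowest value of 1.09, but several of these could not change its value. F11r has 1 probe set here besides an _x_at set below the floor (35.9 and 24.2). F11r, Jam2 and Jam3, all of the junctional adhesion molecule family, therefore did not share a direction.

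Apart from Itga6, the integrin chains of the shared class had ratios in their brightest probe sets no larger than about 0.45, the SD between probe sets. Itgb1, the partner of most stromal alpha chains, read 2994 and 3379 (0.17). Itgav, a chain of vitronectin receptors, read 4339 and 5325 (0.30), and Itgb5, one of its partners, read 1335 and 1558 (0.22). These 3 were marginally higher at every setting, though with arrays divided by their medians Itgb1 was at 0.0078. Itgb3, another partner of Itgav, read 1201 and 878 (-0.45) in its brighter set, while its other set read 11.6 and 133, at least 2.22-fold higher. The direction of Itgb3 thus depends on the probe set, and the median over its sets was 0.35. Itga5, the fibronectin receptor chain, read 687 and 575 (-0.26), and its 4 probe sets ran from -0.40 to 0.52.

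Alternative alpha partners of the same beta chain, which form different receptors, did not all have similar ratios. Of the 10 alpha chains listed as partners of Itgb1, 7 were measured. Relative to Itgb1, the log2 ratio of Itga3 was 1.70 higher, that of Itga6 1.22 higher and that of Itga7 0.89 higher, the last from a bound. In their brightest probe sets the ratios of Itga5 and Itga4 lay below that of Itgb1, by -0.43 and -0.41. These differences are smaller than the SD between probe sets, 0.45. The measured sets of Itga5 ran from -0.40 to 0.52 and those of Itga4 from -0.24 to 0.42, on both sides of Itgb1 at 0.17. Whether Itga5 and Itga4 differ from Itgb1 is therefore not settled. Within the Itgb2 family, Itgax lay close to Itgb2 (a difference of -0.08) and Itgal below it (-0.53) in its brighter probe set. The second Itgal set had a log2 ratio of -0.44, as did Itgb2. These are differences between ratios, and they say nothing of how much of each receptor reached the surface.

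Immunoglobulin-type, hyaluronan-binding and proteoglycan receptors were mostly within 2-fold. Icam1, the inducible ligand of Itgb2 integrins, read 5096 and 3416 (-0.58). It lay lower with GGOH under all 11 other settings, between -0.74 and -0.37, though several of these could not change its value. Cd44, the hyaluronan receptor, read 6602 and 8038 (0.28), and its 3 measured probe sets ran from 0.05 to 0.31. CD47, the surface protein that restrains phagocytosis through SIRP alpha, is encoded by Cd47, which read 12724 and 10858 (-0.23). Alcam, an adhesion molecule of activated leukocytes, read 8042 and 6967 (-0.21). Of its 5 probe sets 4 lay between -0.38 and -0.19, and the last read 222 and 615 (1.47). Icam2 (30.6 and 48.4) and Pecam1 (13.2 and 7.85), both abundant on endothelium, were at the floor on both arrays.

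The syndecans are heparan sulfate proteoglycans that bind matrix and growth factors beside integrins. Sdc1 read 11245 and 12284 (0.13) in its brightest set, 2459 and 3757 (0.61) in the next, and 362 and 1215 (1.75) in the dimmest. At the deposited scaling all were higher with GGOH, though the brightest was at -0.04 with median-scaled arrays, and the dimmest gave the largest ratio. Sdc4, a component of focal adhesions, read 1183 and 1820 (0.62), and Sdc3 read 6697 and 6336 (-0.08) with other sets at -0.76 and 0.74. No direction can therefore be given for Sdc3. Over the 18 members with more than 1 measured probe set, 6 had sets of opposite sign, and in 7 the sets spanned more than 1 log2 unit. Over probe sets above the floor on both arrays, 8 of the members' 46 were at least 2-fold higher, where the background was 4.21%, and none was at least 2-fold lower, where it was 1.48%. Several of the 46 read the same gene.

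The stromal median exceeded the leukocyte median by 1.38 on the log2 scale. This is a description with limits: 6 of the 10 stromal genes were measured only through their GGOH signal, and the stromal median lies midway between 2 bounds, those of Thy1 and Itga7. The classes were also drawn up with earlier results of these data known. With genes above the floor on both arrays the difference was 1.21, from 3 stromal genes. With no floor it was 1.23, over all 19, of which 9 were at background on both arrays. Under the 13 alternatives, which include these, it ran between 1.17 and 1.57. On each array these classes are read by different probe sets, so only the ratios and not the levels are compared. The leukocyte median lay below that of all measured genes under every setting, and the stromal median above it.

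**Figure D3:**
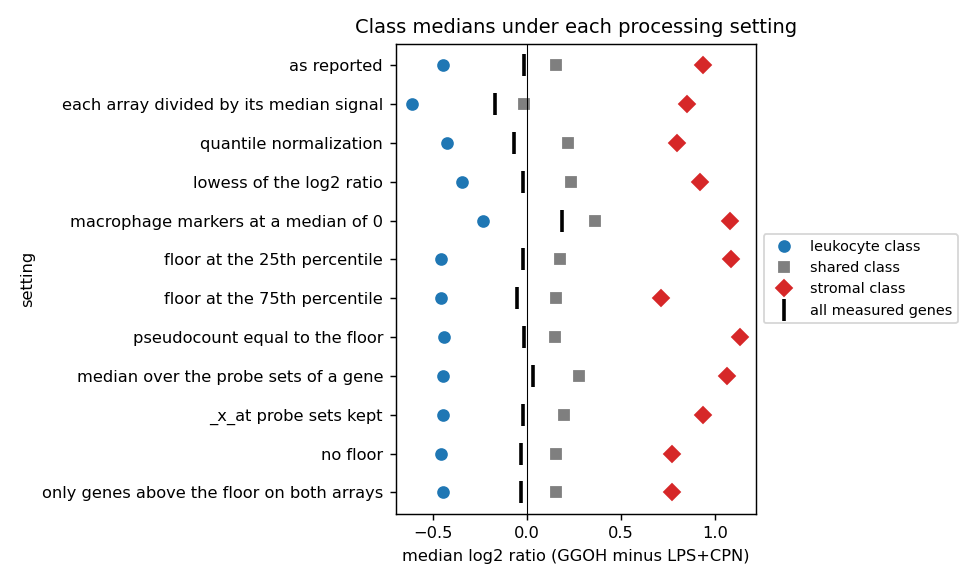
Median log2 ratio (x axis) of the leukocyte, shared and stromal classes and of all measured genes under each processing setting (y axis). The stromal median stays to the right of all genes and the leukocyte median to the left, while the shared median crosses 0 with arrays divided by their medians.

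Markers of macrophages, fibroblasts and mesothelium were described beside these classes. All 12 macrophage markers were measured, with summed signals of 284928 with LPS+CPN and 248865 with GGOH, none 2-fold apart, and a median log2 ratio of -0.21. Of the 12, 9 had a log2 ratio below 0 and 3 above it. The largest in size were Mertk, an efferocytosis receptor (-0.73), and Csf1r, the receptor of macrophage colony-stimulating factor (-0.50), and those above 0 were Cd14 (0.38), Fcgr1 (0.28) and Cd68 (0.02). Of 9 fibroblast markers 8 were measured and all 8 were at least 2-fold higher, beside 5.50% of all measured genes. Their summed signals were 1377 and 29327, with a median of 4.05. Of the 8, 4 were above the floor on both arrays. The other 4 were measured only through their GGOH signal and could not have come out lower. The fibroblast markers included Col1a2 (5.28), Sparc (4.83), Col3a1 (at least 25.9-fold) and Col1a1 (at least 17.6-fold), and Lum was at the floor on both arrays. Within a gene the sets could differ: those of Sparc ran from -0.21 to 6.03 and those of Dcn from 0.26 to 3.16. Of 8 mesothelial markers 7 were at least 2-fold higher, beside 5.50% of all measured genes, with sums of 273 and 2466. The 7 were led by Wt1 (at least 9.02-fold), Krt8 (2.94), Upk1b (at least 5.49-fold) and Krt18 (at least 5.14-fold). Only Krt8 was above the floor on both arrays. The other 7 mesothelial markers were measured only through their GGOH signal and could not have come out lower. Fibroblast and mesothelial markers were thus higher on the same array as the stromal adhesion genes, and their part in that result was not tested. In bulk RNA, more cells of a type and more RNA per cell cannot be told apart.

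Most markers of other cells were at or near background, with S100a8 and Pf4 as the exceptions. None of the B cell, T and NK cell, mast cell or epithelial markers with a probe set used here was above the floor on either array. Of 7 endothelial markers 3 were measured, summing over the list to 445 and 330, and Vwf was at least 2-fold lower (188 and 89.6). Tek, Tie1, Emcn and Cldn5 were at the floor. Of 5 neutrophil markers only S100a8, which macrophages can also express, was measured (4282 and 2216). Of 3 platelet markers Gp9 was at least 2.23-fold lower (134 and 54.3), Pf4 was well above the floor (3222 and 2611, log2 ratio -0.30) and Ppbp was at the floor. Among 5 dendritic cell markers none was 2-fold apart, with Zbtb46 at 0.65 and Ccr7 at a bound of 0.48.

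RNA quality differed between the arrays as well. The 5′ probe set of Actb read 15562 with LPS+CPN and 29426 with GGOH, against 38035 and 36623 for its 3′ set, so the ratio of 5′ to 3′ signal was 0.41 and 0.80. For Gapdh this ratio was 0.50 and 1.05. Both control genes had more 5′ signal on the LPS+CPN+GGOH array. The part of this in the spread between probe sets of 1 gene was not tested. Nor was its part in the genes that read higher with GGOH, or in the class medians.

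Other genes of the adhesion pathway were described from lists written for this purpose. Of the integrin activators and adaptors, which link the tails of beta chains to actin, 28 were measured, with a median of -0.09. At least 2-fold higher were 3 and none was lower, beside 5.50% and 1.66% of all measured genes. Among the 3, Fermt2 and Parva were measured only through their GGOH signal and could not have come out lower. Fermt2, the kindlin of most tissues, read 41.7 and 366, at least 6.10-fold higher, whereas Fermt3, the kindlin of blood cells, read 13667 and 11195 (-0.29). Parva, or alpha-parvin, was at least 3.18-fold higher, and Parvg, the parvin of blood cells, had a log2 ratio of 0.31. Parvb, the remaining parvin, was at -0.31 (1509 and 1221) with another set at 0.90. The 3 probe sets of Fermt2 ran from -0.72 to 3.30, and the 4 of Fermt3 from -0.49 to 0.44. The actin crosslinker Actn1 read 3074 and 6164 (1.004), just past 2-fold. Tln1, or talin, which activates integrins, was at -0.13.

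Catenins and junction adaptors, which anchor cadherins and junctional molecules to the cytoskeleton, had 12 measured genes, with a median of 0.47. At least 2-fold higher were 3 and none was lower, beside 5.50% and 1.66% of all measured genes. Gja1, the gap junction protein connexin 43, read 28.8 and 756, at least 12.6-fold higher. Nectin2, an adhesion partner of cadherin junctions, read 136 and 640 (2.23), and Pkp2, a desmosome protein, was at least 3.05-fold higher. The catenins of the cadherin complex were within 2-fold. Beta-catenin (Ctnnb1) was at -0.27 with probe sets up to 0.70, alpha-catenin (Ctnna1) at -0.40 with a set at 0.51, Ctnnd1 at -0.12 and Jup, or plakoglobin, at 0.72 (130 and 213). No common direction can be read from them. Of the 12 genes 4 were measured only through their GGOH signal.

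Matrix proteins that integrins bind had the highest median of these lists, 2.65, with 12 of 17 measured genes at least 2-fold higher and none lower, beside 5.50% and 1.66% of all measured genes. Of the 17, 10 were measured only through their GGOH signal and could not have come out lower. Of the 7 above the floor on both arrays 4 were at least 2-fold higher. The largest ratios were those of Ccn2 (29.6 and 8042, at least 134-fold), Ccn1 (32.9 and 3327, at least 55.5-fold), Col1a2 (287 and 11165, log2 ratio 5.28) and Fn1 (390 and 7799, 4.32). Of 6 laminin chains, which form the ligands of Itga3 and Itga6, 2 were past 2-fold in their brightest probe set. These were Lamb1, at least 7.16-fold higher, and Lama4, at least 2.24-fold higher. Lamc1 was at 0.48, Lama5 at 0.15 (92.4 and 103) with another set at 1.17, and Lamb2 at a bound of 0.14. Lama2 was at the floor on both arrays. Mfge8, a bridge between Itgav integrins and dying cells, read 19614 and 16164 (-0.28). Col1a1 and Col1a2 are also on the fibroblast list.

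**Figure D4:**
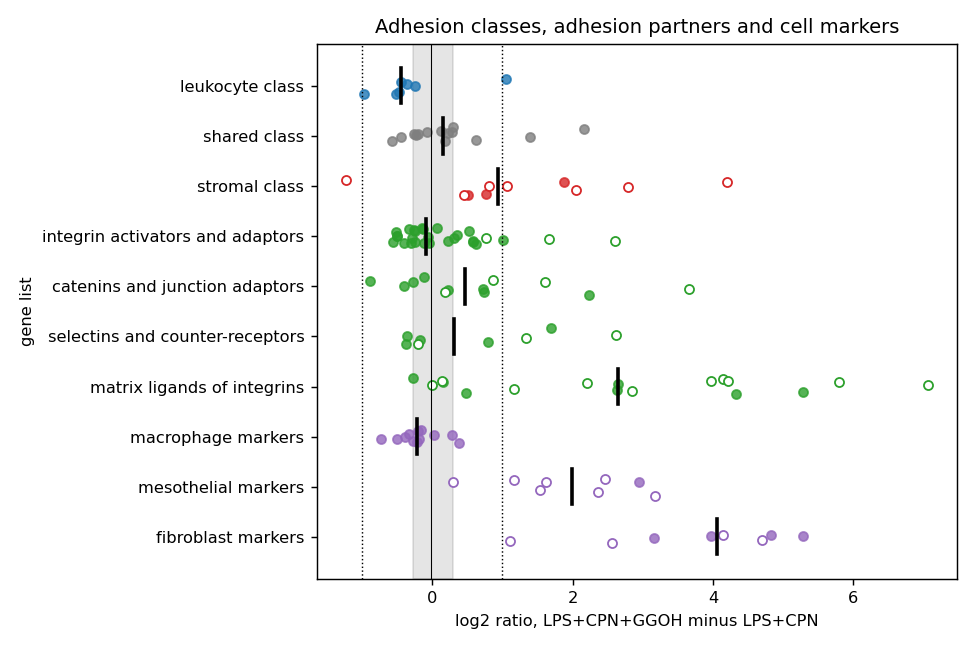
Log2 ratio (x axis) of each measured gene in the adhesion classes, the adhesion partner lists and the macrophage, mesothelial and fibroblast marker lists (y axis). Filled circles were measured on both arrays, open circles are bounds, black bars are list medians, the grey band spans the quartiles of all measured genes (-0.28 to 0.29) and dotted lines mark 2-fold. The leukocyte class (median -0.44) lies beside the macrophage markers (-0.21), and the stromal class (0.94) lies on the side of the mesothelial (1.99) and fibroblast (4.05) markers.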

How the data were processed

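Signal intensity in the deposited table is linear, with 1 value for each probe set on each array. The submitters' processing notes name MAS5, which summarises the probes of a set after background correction; the sources used here give neither version nor scaling. Intensity values had a trimmed mean of about 500 on both deposited columns (499.803 and 499.813 over the central signals), and median signals of 56.7 with LPS+CPN and 63.7 with LPS+CPN+GGOH. Precision is limited by the number of arrays.

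Probe sets were named from the platform annotation, and all 43 gene identifiers were found in RefSeq GRCm38.p6. Gene values left out 64 control probe sets and the _x_at class, which can cross-hybridise (6 of 107 member sets). Each gene was represented by the set whose log2 signal, averaged over both arrays, was highest. Signals below the floor (50th percentile, 59.9) were set to it. The SD between probe sets used 4166 genes measured by 10774 sets on both arrays. Every measured member was to be named; of other lists, up to 4 genes per direction past 2-fold with the largest ratios, and otherwise 2. Genes named beyond this were chosen after their values were seen. Members, classes and lists were chosen with earlier results of these data known. Python 3.11.15, pandas 2.3.3 and statsmodels 0.14.6 were used, and the steps were tested on simulated data. Alternatives were other scalings (macrophage markers at 0 among them), floors at the 25th and 75th percentile, a pseudocount, the median over probe sets, _x_at sets kept, and changed class membership. Using no floor, or only genes measured on both arrays, was added after the data were seen.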

Additional observations from a re-analysis of the deposited data

How the results depend on the processing

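The 4 class summaries (the medians of the leukocyte, stromal and shared classes and the stromal minus leukocyte difference) moved by less than the SD between probe sets, 0.45, under every alternative tried, but the shared median was -0.02 with median-scaled arrays. Of 8 members at least 2-fold higher and 1 lower, the counts were 6 and 2 with median-scaled arrays, 2 and 0 at a 75th percentile floor, 12 and 2 at a 25th percentile floor, 7 and 0 with a pseudocount, 12 and 3 with no floor, and 4 and 0 for genes measured on both arrays. Over all genes, 634 higher and 191 lower became 529 and 332 under median scaling, 506 and 304 after quantile normalization, 889 and 92 with macrophage markers at 0 (a shift of the median by 0.20), 1658 and 1127 at the 25th percentile, 126 and 88 at the 75th, 2551 and 2150 with no floor, and 328 and 151 on both arrays. Higher genes were 76.8% of those past 2-fold as deposited, and 61.4%, 62.5% and 90.6% under those 3 scalings. Of 326 values of single members under other settings, 24 moved by more than 0.45 and none that was past 2-fold changed sign. For a gene above the floor on both arrays, several settings leave the value as it was, so many of the 326 could not move. Cdh3 (0.13) and Itga6 (0.86) fell short of 2-fold at the 75th percentile floor, where stromal signals were mostly lost. No paired analysis was possible because each condition has 1 array. Arrays give no depth, and signals near the floor limit the stromal values.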

Other observations

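Among selectins and their counter-receptors, 8 of 11 genes were measured. At least 2-fold higher were 3 and none was lower, beside 5.50% and 1.66% of all measured genes. Among the 3, Cd34 and Podxl were measured only through their GGOH signal and could not have come out lower. Cd34, a sialomucin of vessels, progenitors and fibroblasts, read 49.4 with LPS+CPN and 369 with LPS+CPN+GGOH, at least 6.17-fold higher. Podxl, a related sialomucin also found on mesothelium, was at least 2.52-fold higher (36.6 and 151), and Esam, an endothelial and platelet adhesion molecule, had a log2 ratio of 1.69 (78.4 and 252). Kdr, the main VEGF receptor of endothelium, read 98.0 and 96.3, Vwf was lower, and Cdh5, Pecam1, Tek, Tie1, Emcn and Cldn5 were at the floor on both arrays. Madcam1, an addressin of gut vessels, read 69.0 and 48.1 (at least 1.15-fold lower), Jam2 was at least 2.35-fold lower, and Icam2, Mcam and the selectins Selp and Sele were at the floor as well. Genes known from endothelium thus had no common direction. Sirpa, the macrophage receptor of CD47, read 10409 and 8081 (-0.37), and its ligand gene Cd47 had a log2 ratio of -0.23. Hmmr, a hyaluronan-binding protein of dividing cells, read 122 and 213 (0.80).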
